A study of Homo sapiens with 8 samples.

Results

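The comparison described here is the response of WT BJ-HRAS clones to (Z)-4-hydroxytamoxifen (4-OHT), read across every gene with enough reads to test. It uses 4 of the 8 RNA-sequencing libraries of the series: WT clones 15 and 54 without 4-OHT, and the same 2 clones after 7 days with 4-OHT at 100 nM. The libraries were chosen by their labels, genotype BJ-HRAS WT with treatment absent or present, and no measured value entered the choice. The remaining 4 libraries come from SNORA13 knockout (KO) clones 66 and 69 under both conditions. They serve here for the filter of genes tested, the estimate of spread and a test of whether a response differed in size. BJ is a human skin fibroblast line, and the untreated and treated groups alike carry the BJ-HRAS background. The labels tell the clones apart by number, the same 2 clones stand in both WT groups, and there is 1 dose and 1 time. The main fit leaves this pairing out, and fits with the clone as a block are given beside it. Cells of this kind without the HRAS construct were not analysed here, so what 4-OHT does through HRAS and what it does otherwise cannot be told apart.

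In the inducible version of this system, HRAS is fused to the hormone-binding part of the oestrogen receptor, so that 4-OHT, an oestrogen receptor ligand, switches it on. RAS at the membrane passes signals through kinase cascades to transcription factors. Sustained RAS signalling in normal human fibroblasts is known to end division lastingly, in the state called oncogene-induced senescence, in which cells enlarge, secrete many factors and lose part of their connective tissue programme. The p53, secretory and RAS target lists of that state are textbook matter. The text below turns to the rest of the transcriptome.

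Library totals were 22.1 to 24.9 M reads, so that for a gene of 1 kb each read counts for 0.0401 to 0.0453 RPKM, which divides a gene's reads by its length in kilobases and by library size. All RPKM given below are divided by a trimmed-mean (TMM) factor per library. All 13 fibroblast markers were read in the 4 WT libraries. With 4-OHT 8 were called lower (61.5%), 7 of them by 2-fold or more, and 3 higher (23.1%; median log2 change -1.54). Over all genes tested 23.6% were called lower, 10.9% by 2-fold or more, and 25.2% higher, so the share of markers higher is near that of all genes. VIM measured 811 and 777 RPKM without and 1223 and 1300 with 4-OHT, COL1A1 342 and 344 without and 65.6 and 52.1 with it, and DCN 68.6 and 54.2 without and 0.969 and 0.898 with it. The list's summed level was 5443.5 and 5195.9 RPKM without and 3335.0 and 3757.6 with 4-OHT. The keratinocyte markers KRT5, KRT14, KRT1 and GRHL2 had no read in any WT library, and CDH5, of endothelium, CD3E, of T cells, and TYR, of melanocytes, had at most 2. Other members of those lists were read. Of the immune markers, PTPRC had 124 and 332 reads without and 60 and 53 with 4-OHT, and CD14 385 to 568. The endothelial TIE1 had 44 to 160 reads and CLDN5 3 to 59, and MITF, of the melanocyte list, 939 to 2004. Summed levels in the WT libraries were 1.0 to 2.4 RPKM for the endothelial, 12.4 to 16.7 for the immune and 9.0 to 17.6 for the melanocyte list. The RNA of the signal recognition particle took 9.18% and 9.58% of the reads without 4-OHT and 9.72% (clone 15) and 15.37% (clone 54) with it. With the abundant structural RNAs left out, 8049 genes were called in place of 8084. With bulk RNA, fewer cells making a transcript and less transcript per cell cannot be told apart.

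Genes in every level class differed between treated and untreated WT clones. Of 16544 genes tested, 8084 passed (limma, adjusted p under 0.05), which is 48.9%, with 4176 higher (25.2%) and 3908 lower (23.6%). These shares are the background for each count of genes below. Scaled by library size only, the balance turned, with 3493 higher and 4338 lower and a median log2 change of -0.08 over all genes. Many of the changes were small: 2478 of the called genes (30.7%) changed by less than 1.5-fold and 2570 by 1.5-fold to 2-fold. At 2-fold or more the balance leaned downward, with 1228 genes higher (7.42%) and 1808 lower (10.9%). At 4-fold or more 336 were higher (2.03%) and 524 lower (3.17%), and at 10-fold or more 92 were higher (0.556%) and 125 lower (0.756%). Groups did not overlap in 72.8% of all genes tested, so a gap between 2 and 2 libraries by itself singles out little.

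The 2 clones moved alike. Every one of the 8084 called genes had the same sign in clone 15 and clone 54, which a call over both clones largely fixes. Over all 16544 genes the changes of the clones correlated at r = 0.875 (Spearman rho 0.817), a description across genes that share 2 untreated and 2 treated libraries. Clone 15 had 3630 genes past 2-fold and clone 54 had 3255. Opposite changes of at least 2-fold in each clone were seen in 14 genes, and 0 of them had a mean CPM (reads scaled to the library total) of 5 or more. The clones themselves differed by 2-fold or more in 719 genes without 4-OHT and in 549 with it, and 140 genes differed the same way in both.

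**Figure D1:**
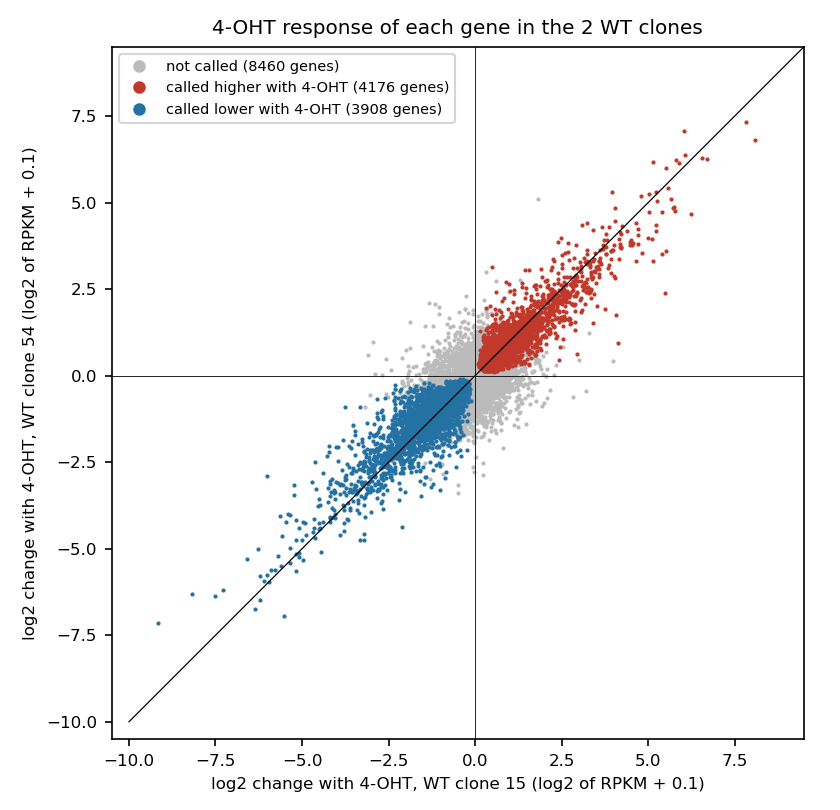
Log2 change with 4-OHT of each of the 16544 genes tested in WT clone 15 (horizontal axis) against WT clone 54 (vertical axis), on log2(RPKM + 0.1); each point is a gene, and the line marks equal change. The 4176 genes called higher lie in the upper right and the 3908 called lower in the lower left, and the clones' changes correlate at r = 0.875.

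The share of genes called at any size of change rose with their level before treatment. The share called with a change of 2-fold or more did not rise with level. Below 1 RPKM in untreated cells 33.7% of 3931 genes were called, between 1 and 10 RPKM 48.1% of 7292, between 10 and 100 RPKM 61.0% of 4699, and from 100 RPKM 61.6% of 622. Called changes of 2-fold or more numbered 449 higher and 531 lower below 1 RPKM. They numbered 487 and 811 at 1 to 10 RPKM, and 275 and 396 at 10 to 100 RPKM. Among the most abundant class, 70 genes fell by 2-fold or more and 17 rose by as much. The classes were set by the untreated level alone, so genes that rose to 100 RPKM from below are not in it. The lean of this class toward falls is therefore partly built in. Protein-coding genes were called higher in 29.4% and lower in 24.7%. Long intergenic noncoding RNAs leaned the other way, with 14.3% of 664 higher and 31.6% lower (median log2 change -0.41), as did antisense transcripts, with 12.8% of 989 higher and 23.6% lower. The counting setting for strand is not given in the sources used here, so reads of an antisense transcript and of the gene opposite it may be mixed. Of 103 small nucleolar RNAs 16 were higher and 7 lower.

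**Figure D2:**
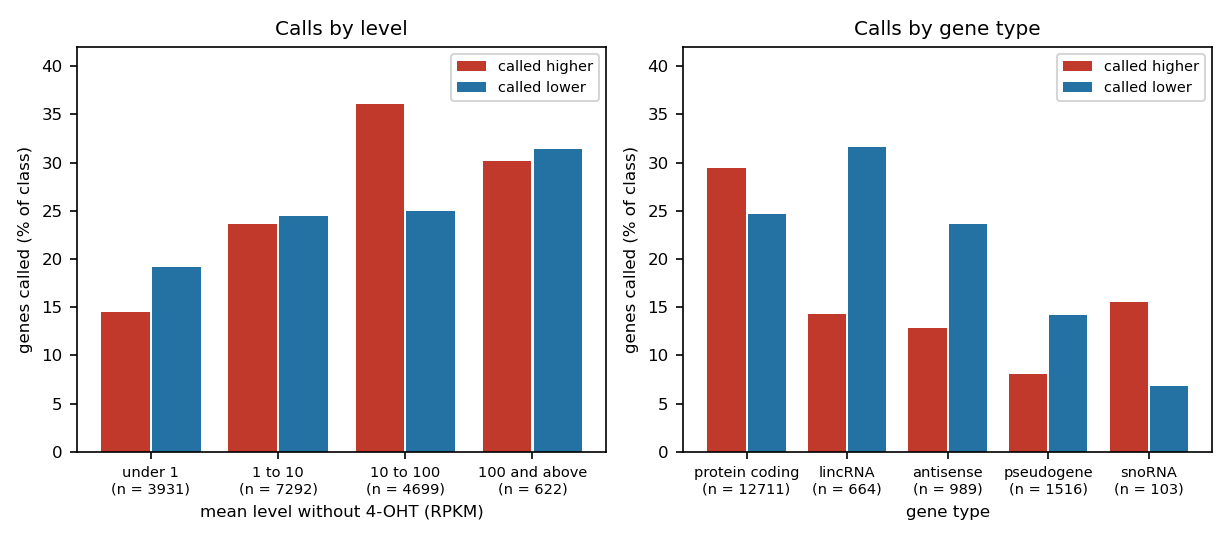
Percent of tested genes called higher (red) and lower (blue) with 4-OHT, by mean untreated RPKM (left) and by gene type (right); n below each pair is the number of genes tested, and bars start at 0. Genes at 10 to 100 RPKM were called higher in 36.1% and lower in 25%, and long intergenic noncoding RNAs (lincRNA) higher in 14.3% and lower in 31.6%.

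The most abundant messages were largely the same with and without 4-OHT. ACTB, TMSB10, ACTG1, LGALS1, FTL, EEF1A1 and GAPDH were among the top 10 protein-coding genes by RPKM in both groups. Of the untreated top 10, 3 genes left it. THBS1, a matrix glycoprotein that activates latent TGF-beta, fell from 2211 ± 399 to 526 ± 130.3 RPKM (SD, n = 2 clones), a 4.23-fold fall (limma adjusted p = 0.000122), while TPM2, a tropomyosin, fell 1.44-fold and ANXA2, a membrane-binding annexin, fell 1.23-fold. RPL37A, S100A6 and PKM took their places. RPL37A, a ribosomal protein, was called higher (1.19-fold, adjusted p = 0.0415) but not with the clone as a block (adjusted p = 0.0764). PKM, the pyruvate kinase of most dividing cells, was called higher (1.17-fold) and S100A6 was not (adjusted p = 0.137). Differences of this size rest on single libraries: without treated clone 15 the adjusted p was 0.0702 for PKM, 0.0549 for ANXA2 and 0.0554 for RPL37A, and 0.00449 for S100A6. Without treated clone 54 it was 0.0540 for LGALS1, 0.0540 for PKM, 0.120 for ANXA2 and 0.172 for RPL37A. With the clone as a block on the 4 WT libraries alone it was 0.0835 for LGALS1, 0.162 for PKM, 0.0919 for ANXA2 and 0.177 for RPL37A. Without untreated clone 15 it was 0.0463 for FTL and 0.0902 for ANXA2, and without untreated clone 54 0.111 for RPL37A.

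Outside the p53, secretory and RAS lists, the genes that rose most ranged over ion channels, receptors, ligands and matrix. TRPA1, a cation channel opened by irritants, measured 0.162 and 0.211 RPKM without 4-OHT (clones 15 and 54) and 15.5 and 21.8 with it. BMP2, a bone morphogenetic protein ligand, measured 0.0710 and 0.161 without and 7.79 and 16.5 with 4-OHT. CNIH3, an auxiliary subunit of AMPA glutamate receptors, measured 0.935 and 1.03 without and 52.7 and 38.5 with 4-OHT. In all 3 genes both treated libraries lay far above both untreated ones, and clone 54 was the higher of the treated pair for TRPA1 and BMP2 and clone 15 for CNIH3. The fitted rises were 64.9-fold for TRPA1 (log2 6.02 ± 0.19, SE; limma adjusted p = 2.48e-06), 54.3-fold for BMP2 (5.76 ± 0.40; 4.41e-05) and 41.9-fold for CNIH3 (5.39 ± 0.25; 1.07e-05). Folds are computed on log2(RPKM + 0.1), and so are too small for genes near zero.

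Genes are not named here in order of size: the rise of HAS2, given last in this paragraph, was larger than that of TRPA1. COL10A1, given below with the genes that appeared, had a ratio of 364 by reads. G0S2, an inhibitor of the main triglyceride lipase, rose from 0.574 and 1.00 RPKM to 36.8 and 29.5, and FZD8, a WNT receptor, from 0.187 and 0.293 to 9.28 and 15.0. PKIA, a peptide inhibitor of protein kinase A, rose 29.7-fold and MC4R, a melanocortin receptor known from energy balance, 43.8-fold. IL13RA2, a decoy receptor of interleukin 13, rose 50.6-fold, KCTD4 39.0-fold, TMEM40 23.5-fold, INSC, an adaptor of spindle orientation, 23.1-fold, and the noncoding AC096537.1 23.2-fold. HAS2, a hyaluronan synthase, rose 93.3-fold. In each of these 10 genes both treated libraries exceeded both untreated ones, which holds for every gene called higher.

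**Figure D3:**
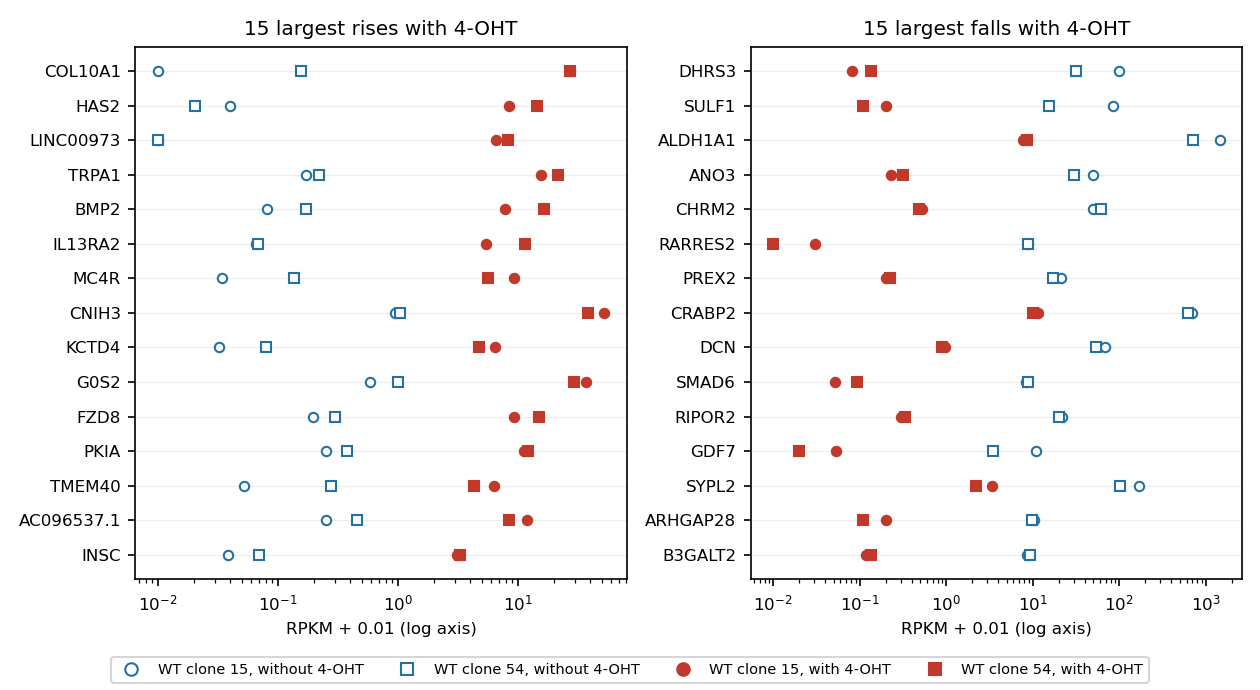
RPKM + 0.01 (log axis) of the 15 genes with the largest rise (left) and the 15 with the largest fall (right) in the 4 WT libraries; open blue symbols are untreated and filled red symbols treated, circles clone 15 and squares clone 54. In each gene the 2 treated libraries lie on 1 side of the 2 untreated ones, as the rule that chose the genes asks, with TRPA1 at 0.162 and 0.211 RPKM without 4-OHT and 15.5 and 21.8 with it.

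The deepest falls outside those lists included genes of matrix, growth factor signalling and membranes. SULF1, which removes sulfate groups from heparan sulfate, measured 85.4 and 15.6 RPKM without 4-OHT and 0.193 and 0.0985 with it. SMAD6, an inhibitor of BMP signalling, measured 8.29 and 8.87 without and 0.0415 and 0.0833 with 4-OHT. SYPL2, a synaptophysin relative known from muscle membranes, measured 169 and 103 without and 3.37 and 2.20 with 4-OHT. The groups lay far apart in each of the 3 genes, while SULF1 was higher in untreated clone 15 than in untreated clone 54. The fitted falls were 152-fold for SULF1 (log2 -7.25 ± 0.67; adjusted p = 0.000147), 53.9-fold for SMAD6 (-5.75 ± 0.21; 3.73e-06) and 46.8-fold for SYPL2 (-5.55 ± 0.25; 1.00e-05). With limma-voom on recovered reads SULF1 had a fall of 7.98 on the log2 scale and an adjusted p of 0.0987.

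ANO3, of the anoctamin channel and scramblase family, fell from 49.7 and 29.8 to 0.220 and 0.308 RPKM, and PREX2, an exchange factor for the GTPase RAC, from 21.5 and 17.1 to 0.191 and 0.215. RIPOR2 fell 51.7-fold and ARHGAP28, a GTPase-activating protein, 42.4-fold. GDF7, a ligand of the BMP family, fell 50-fold and B3GALT2, a galactosyltransferase, 41.6-fold. DHRS3, ALDH1A1, CRABP2 and RARRES2, which belong to retinoid handling, complete the set with CHRM2, a muscarinic receptor, and DCN, the proteoglycan decorin. With limma-voom the adjusted p was 0.0798 for GDF7 and 0.0635 for DHRS3.

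A few genes went from almost no reads to a clear level, or the reverse. With at most 2 reads in both libraries of 1 group and a CPM of at least 1 in both of the other, 24 genes appeared and 26 disappeared with 4-OHT. COL10A1, the collagen of hypertrophic cartilage, had 0 and 1 reads without 4-OHT and 207 and 181 with it, a ratio of 364 (95% exact interval 64.9 to 14411, counting error only). LINC00973, a long noncoding RNA, had no untreated read and 160 and 175 treated ones, at least 105-fold higher against a floor of 3 reads over the group. SYT7, a calcium sensor of vesicle release, had no untreated read and was at least 63.5-fold higher. IL37, an anti-inflammatory member of the interleukin 1 family, had 2 untreated reads in all and 199 treated ones (ratio 93.3, interval 25.5 to 776). ESM1, a proteoglycan of activated endothelium, had 3 and 182 (ratio 56.9, interval 19.2 to 278), and ASB18, of the ubiquitin ligase substrate adaptors, 1 and 188 (ratio 176, interval 31.3 to 7002).

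Among the genes that disappeared, KRT4, a keratin of stratified epithelium, had 384 untreated reads and 1 treated read (ratio 409, interval 73.0 to 16212). RAMP1, a partner of the calcitonin receptor family, had 213 and 2 (ratio 114, interval 31.0 to 944), and NUPR1, a stress-induced chromatin protein, 389 and 2 (ratio 207, interval 57.0 to 1718). PTGIS, the prostacyclin synthase, had 325 and 3 (ratio 115, interval 39.2 to 563; limma-voom adjusted p = 0.0686), and CLUL1 354 and 3. VIT, a matrix protein, had 213 untreated reads and none after treatment, at least 75.7-fold lower. These groups do not overlap, as the rule that chose them fixes. Whether a response had another size in the KO clones was tested for the 42 genes of the largest changes and of these sets: 8 passed (adjusted p under 0.05), and their values are given with the results for a closer look. Of all genes tested 7.44% passed, but the 42 were chosen by their WT change, which enters the difference tested, so the shares are not comparable.

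Promoter sequence was looked at for the genes that rose. The AP-1 element, bound by JUN and FOS proteins, transcription factors downstream of RAS, was searched as TGANTCA, where N is any base. The open base counts TGATTCA, as in JCAD below, together with TGAGTCA. The forms were not counted apart, and whether JUN and FOS bind each of them was not tested. RefSeq windows (GRCh38.p14, 250 bases before to 50 after a start, 1 window a gene) matched 10931 of the 16544 genes tested. On either strand the element was in 9.51% of 810 windows of genes called higher by at least 2-fold, in 5.72% of 1101 windows of genes called lower by as much, in 4.74% of the 10858 distinct windows of all genes tested and in 7.76% of all 27305 windows. At 4-fold the shares were 10.8% and 6.92%. In all 8 elements were searched, and the other 7 were the cyclic AMP element TGACGTCA, the E-box CACGTG, the CCAAT box CCAAT, the serum response element, the sterol element TCACNCCAC, the antioxidant element TGACNNNGC and the TEAD element GGAATG. The TEAD element was in 11.1% of windows of genes tested, in 15.5% of those of genes 4-fold higher and in 16.7% of those 4-fold lower. The CCAAT box was in 36.7% of windows of genes tested, in 36.2% of those 4-fold higher and in 27.7% of those 4-fold lower, and the E-box in 9.96%, 7.04% and 8.18%. The antioxidant element was in 15.2%, 14.1% and 11.9%, the cyclic AMP element in 3.32%, 3.76% and 1.57%, and the sterol element in 1.05%, 0.939% and 0.314%. The serum response element was searched as 1 fixed run of letters with no open base, so other forms of it were not counted. That run was in 0.046% of windows of genes tested and in none of a gene called with a 4-fold change. How common the element is in its other forms was not tested. A match is letters in a window and no evidence of binding. The upstream parts of 4 such windows are shown, chosen after their values were seen, from genes that rose 7-fold or more and whose RefSeq start lies within 500 bases of the GENCODE start. The element is in capitals and each run reads 5′ to 3′ on the gene's strand.
INSC, chr11:15112304-15112423, plus strand: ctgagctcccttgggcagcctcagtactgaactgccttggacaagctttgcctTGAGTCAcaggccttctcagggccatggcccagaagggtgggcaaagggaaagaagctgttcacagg
LPXN, chr11:58578248-58578367, minus strand: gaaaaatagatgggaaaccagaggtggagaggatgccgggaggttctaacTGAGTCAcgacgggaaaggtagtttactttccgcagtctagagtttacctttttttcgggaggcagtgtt
JCAD, chr10:30115534-30115653, minus strand: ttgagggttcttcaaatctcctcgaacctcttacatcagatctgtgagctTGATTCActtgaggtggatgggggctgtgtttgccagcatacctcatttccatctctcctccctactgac
SHC4, chr15:48963931-48964050, minus strand: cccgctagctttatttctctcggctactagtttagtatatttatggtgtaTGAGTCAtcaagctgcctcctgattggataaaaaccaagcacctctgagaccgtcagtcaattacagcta

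The genes behind these windows measured as follows. INSC rose from 0.0284 and 0.0593 RPKM to 3.14 and 3.28. LPXN, the adhesion protein leupaxin, rose from 14.0 and 9.11 RPKM to 132 and 113, a 10.7-fold rise. JCAD, a junction protein of endothelium, rose from 6.11 and 14.1 to 67.7 and 72.5, 7.47-fold, and SHC4, an adaptor of receptor tyrosine kinases, from 0.626 and 0.889 to 6.65 and 5.24, 7.09-fold. The element begins 67, 184, 109 and 81 bases before the start in INSC, LPXN, JCAD and SHC4. Of the 15 largest rises 9 had a window and 2 of these held the element, and of the 15 largest falls 12 had one and 0 held it.

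Gene lists, most of them outside the 3 textbook ones, were then counted member by member. Members with too few reads over all 8 libraries were not tested and are outside these counts. A gene could pass through its KO reads alone: the ion channel gene KCNJ8 was tested with no read in any WT library. ALDOA and LDHB of glycolysis, EIF4A1 and EEF1G of translation and PSMA6 of the proteasome had at most 2 reads in each WT library. Whether such genes were silent or their reads were lost in counting was not tested. The counts of a list are read against 25.2% higher and 23.6% lower over all genes tested. A list's median is read against quartiles of -0.49 and 0.41 for the log2 change of all genes. Lists and members were chosen with earlier results of these data known, so a count away from these shares is description and no test.

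**Figure D4:**
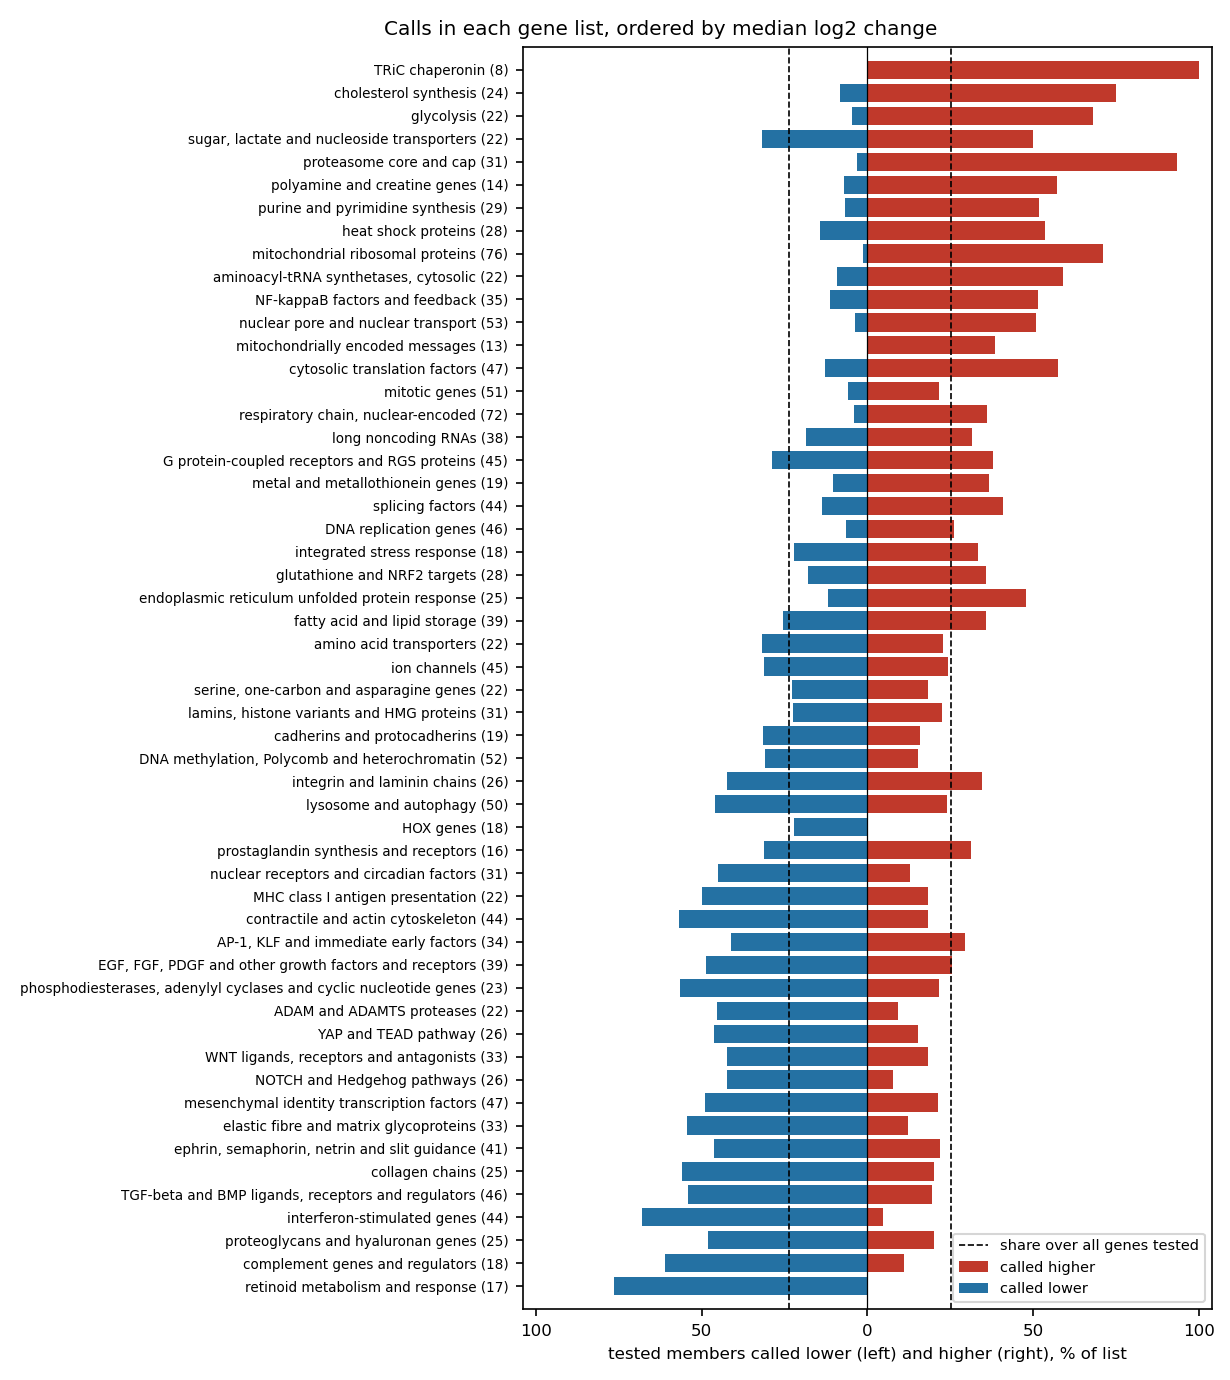
Percent of the tested members of each gene list called lower (blue, to the left) and higher (red, to the right) with 4-OHT, ordered by the list's median log2 change; numbers in brackets are tested members and dashed lines mark the shares over all genes tested, 23.6% lower and 25.2% higher. The TRiC chaperonin has 100% called higher and retinoid metabolism and response 76.5% called lower.

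The TRiC chaperonin, a ring that folds actin, tubulin and other cytosolic proteins, rose as a whole: all 8 subunits tested were called higher (median log2 change 0.91). CCT3 measured 151 and 142 RPKM without and 284 and 281 with 4-OHT, and CCT6A rose 2.02-fold, TCP1 2.01-fold and CCT2 1.87-fold. The smallest rise was that of CCT8, from 98.9 ± 6.93 to 137 ± 5.43 RPKM (SD, n = 2 clones). Of 28 heat shock proteins 15 were higher and 4 lower (median 0.48), with the HSP70-HSP90 organiser STIP1 up 2.34-fold, HSPH1, a nucleotide exchange factor of HSP70, 2.24-fold, and the mitochondrial chaperones HSPD1 2.09-fold and HSPA9 1.81-fold. The deepest fall was that of the small heat shock protein CRYAB, from 9.08 and 6.32 to 0.448 and 0.513 RPKM (13.2-fold), and its relative HSPB6 fell 2.30-fold, a call lost without untreated clone 15 (adjusted p = 0.0555) or treated clone 54 (0.0600). Genes of the endoplasmic reticulum's unfolded protein response were higher in 12 and lower in 3 of 25. SDF2L1, a cofactor of BiP, rose 3.31-fold and MANF 2.15-fold, and the collagen-linked factor CREB3L1 fell 2.33-fold.

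The proteasome, which degrades ubiquitin-tagged proteins, rose almost throughout: 29 of 31 tested core and cap genes were higher and 1 was lower (median 0.53). PSMD2, of the regulatory cap, measured 63.9 and 77.5 RPKM without and 212 and 219 with 4-OHT, a 3.06-fold rise (log2 1.61 ± 0.10; limma adjusted p = 2.51e-05), and PSMC5 and PSMC4, ATPases of the cap base, rose 1.75-fold and 1.71-fold. PSMA5, a core alpha subunit, was the 1 lower, from 88.8 and 75.9 RPKM to 36.9 and 37.1, 2.22-fold lower (-1.15 ± 0.09; adjusted p = 6.56e-05). The 2 PSMA5 values with 4-OHT lay below both without it, which holds for every gene called lower. In the KO clones PSMA5 measured 76.1 and 80.2 RPKM without and 35.0 and 36.8 with 4-OHT (clones 66 and 69). PSMA2, at 1.71 ± 0.349 RPKM (SD, n = 2 clones) before treatment, was not called (adjusted p = 0.586).

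Mitochondrial ribosomal proteins were higher in 54 and lower in 1 of 76 tested (median 0.45). MRPL52 rose 3.42-fold, from 25.7 and 29.3 to 92.5 and 95.5 RPKM, MRPL36 3.09-fold, MRPL17 2.49-fold and MRPL15 2.08-fold. The 1 lower was MRPS24, which measured 20.8 and 12.0 RPKM without and 3.54 and 4.25 with 4-OHT, 3.99-fold lower (adjusted p = 0.000477). Nuclear genes of the respiratory chain were higher in 26 and lower in 3 of 72 (median 0.20), with no change of 2-fold or more, for example CYC1 (1.80-fold) and NDUFV3 (1.69-fold). The number lower was 1 with the clone as a block, 1 without untreated clone 15 and 0 without treated clone 15. Of 13 messages encoded in mitochondria 5 were called higher and 0 lower. The number higher was 2 without untreated clone 54, 2 without treated clone 15 and 8 without untreated clone 15.

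In cytosolic translation, 27 of 47 initiation, elongation and release factors were higher and 6 lower (median 0.29), and 13 of 22 aminoacyl-tRNA synthetase genes were higher and 2 lower (0.41). EIF5A, the hypusine-bearing elongation factor, rose 1.96-fold, ABCE1, which recycles ribosomes, 2.13-fold, and EIF1AX 2.24-fold, and both subunits of phenylalanyl-tRNA synthetase rose, FARSB 2.19-fold and FARSA 1.91-fold. EIF4A2, a helicase paralogue of the initiation complex, fell from 176 and 137 to 53.4 and 57.8 RPKM, 2.79-fold. Of 53 nuclear pore and transport genes 27 were higher and 2 lower, none by 2-fold, among them the GTPase RAN (1.95-fold) and the importins KPNA4 (1.71-fold) and KPNA3 (1.63-fold).

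**Figure D5:**
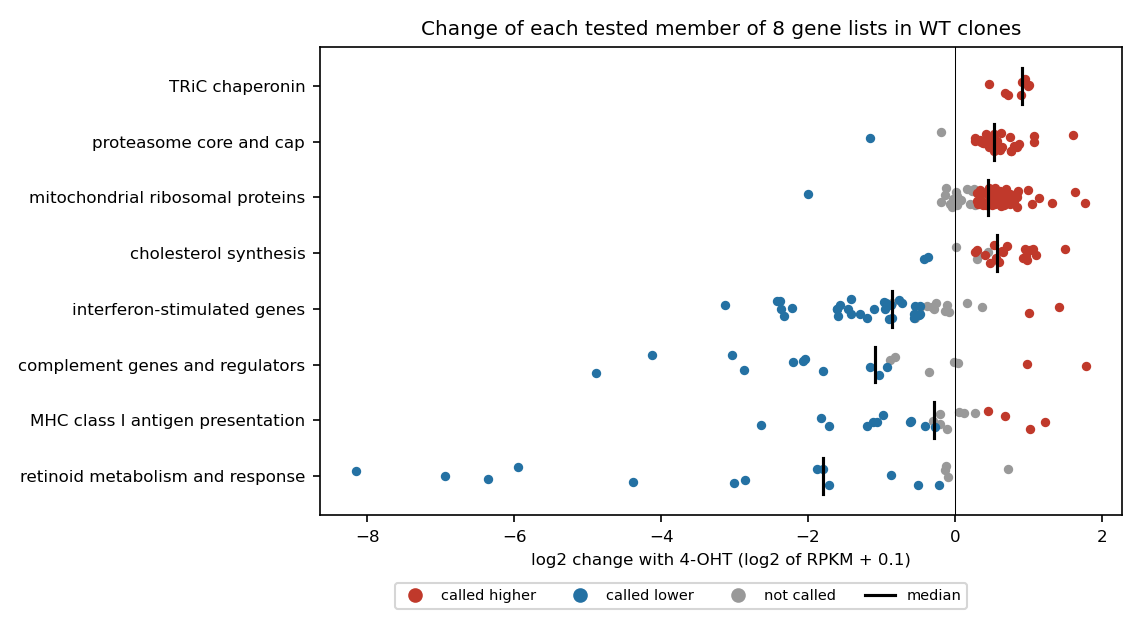
Log2 change with 4-OHT of each tested member of 8 gene lists in the WT clones, on log2(RPKM + 0.1); each point is a gene, red called higher, blue called lower and grey not called, black bars are medians, and vertical scatter within a list has no meaning. All 8 TRiC members lie between 0.47 and 1.01, and retinoid genes reach -8.15.

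Of the small-molecule pathways, cholesterol synthesis and uptake rose in 18 and fell in 2 of 24 members tested (median 0.58). NSDHL, a demethylating dehydrogenase of the late pathway, measured 7.55 and 6.28 RPKM without and 19.3 and 20.1 with 4-OHT, 2.83-fold higher, and MVD, FDFT1 and MVK, of the mevalonate and squalene steps, rose 2.15-fold, 2.04-fold and 1.95-fold. SREBF2, the transcription factor of the pathway, fell from 29.6 ± 4.01 to 22.7 ± 1.00 RPKM. The adjusted p of SREBF2 was 0.0218, and 0.0900, 0.102 and 0.0521 without untreated clone 15, treated clone 15 and treated clone 54, and 0.0501 with the clone as a block on the 4 WT libraries alone. Glycolysis genes were higher in 15 and lower in 1 of 22 (median 0.54). The kinases that hold back pyruvate oxidation rose, PDK3 6.47-fold and PDK1 3.20-fold, as did hexokinase HK2 (3.16-fold) and phosphofructokinase PFKP (1.95-fold), and the 1 lower was a further pyruvate dehydrogenase kinase, PDK2 (log2 -0.87).

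Purine and pyrimidine synthesis was higher in 15 and lower in 2 of 29. PPAT, the committed enzyme of purine synthesis, rose 3.23-fold and UPP1, uridine phosphorylase, 3.08-fold, from 6.69 and 7.91 to 23 and 22.2 RPKM. Polyamine and creatine genes were higher in 8 and lower in 1 of 14. SMOX, which oxidises spermine, measured 8.54 and 8.45 without and 50.4 and 51.2 with 4-OHT, 5.93-fold higher (log2 2.57 ± 0.11; adjusted p = 6.90e-06), and AMD1, SMS and SRM, which build spermidine and spermine, rose 2.46-fold, 2.09-fold and 1.84-fold. Targets of the antioxidant factor NRF2 and glutathione genes were mixed, 10 higher and 5 lower of 28, with ME1 2.93-fold and the cystine carrier SLC7A11 3.98-fold higher and the efflux pump ABCC3 4.80-fold lower. The number lower was 3 without treated clone 15.

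The integrated stress response, which stops initiation and induces ATF4 targets, was also mixed, 6 higher and 4 lower of 18. CHAC1, which degrades glutathione, rose from 14.7 and 13.1 to 164 and 153 RPKM, 11.3-fold (adjusted p = 2.06e-06), and the hormones STC2 and GDF15 rose 2.94-fold and 4.48-fold. NUPR1 had almost vanished (389 reads without and 2 with 4-OHT), and ATF4 itself measured 127 ± 23 without and 92.6 ± 5.39 RPKM with 4-OHT and was not called (adjusted p = 0.249), though it was called lower with the clone as a block on the 4 WT libraries alone (log2 -0.45, adjusted p = 0.0186). Lipid genes were mixed too, 14 higher and 10 lower of 39, with CD36, a fatty acid transporter, 16.4-fold lower and the acyl-CoA synthetase ACSL4 1.86-fold higher. Serine and one-carbon genes showed 4 higher and 5 lower of 22, none by 2-fold, and 2 higher without treated clone 54.

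Of 17 tested genes of retinoid metabolism and response 13 were lower, 10 of them by 2-fold or more, and 0 higher (median -1.80). With a pseudocount of 0.01 and with limma-voom 1 was called higher, and with a pseudocount of 1 the median was -0.84. CYP26B1, a member not called, went the other way. It had 3 reads in all without and 20 with 4-OHT (ratio 6.25, exact interval 1.85 to 32.9, counting error only). Vitamin A is oxidised to retinal by RDH10 and back by DHRS3, then to retinoic acid by ALDH1A enzymes, carried by CRABP2 and read by RAR and RXR receptors. Beside the 4 genes among the deepest falls, RARRES1, a retinoid-responsive gene, fell from 3.87 to 0.0863 RPKM in the mean, and RDH10 from 34.9 to 4.61. The receptors, named after their values were seen, had smaller differences. RARG fell by 0.87 on the log2 scale. RXRA fell by 0.22 (adjusted p = 0.0391), a call lost with the clone as a block (adjusted p = 0.0625) and without any 1 of the 4 WT libraries (0.0810 to 0.149), and RARA (-0.13, adjusted p = 0.43) and RARB (-0.09, adjusted p = 0.775) were not called.

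Of 44 interferon-stimulated genes 30 were lower and 2 higher (median -0.85). STAT2, which carries the interferon signal, measured 50 and 44.7 RPKM without and 16.3 and 15.1 with 4-OHT, 3.01-fold lower, and its targets IFIT1, IFIT2 and GBP2 fell 5.20-fold, 5.15-fold and 4.67-fold. The 2 that rose were DDX58, the RNA sensor RIG-I, from 4.84 to 9.76 RPKM, and OASL. Of 18 complement genes 11 were lower and 2 higher (median -1.09, and -1.64 with limma-voom): C1R, the first protease of the classical pathway, measured 69.6 and 60.4 without and 2.06 and 2.16 with 4-OHT, 29.4-fold lower (log2 -4.88 ± 0.09; adjusted p = 1.01e-06), and its partner C1S fell 17.5-fold. CD59, which blocks the terminal pore, was 1 of the 2 that rose, from 48.7 to 96.5 RPKM, and the receptor C3AR1 the other.

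Antigen presentation by MHC class I was lower in 11 and higher in 4 of 22. HLA-B measured 548 and 638 RPKM without and 168 and 193 with 4-OHT, 3.28-fold lower, and HLA-C fell 2.15-fold, HLA-F 6.21-fold and B2M, their shared light chain, 2.08-fold. Reads of these HLA genes can be split among near-identical copies, so single values are uncertain. Of the 4 that rose, MICA and ULBP2 are stress ligands of natural killer cells, TAP1 is the peptide transporter and PSME2 a proteasome activator subunit. The NF-kappaB list had 18 higher and 4 lower of 35 (median 0.38), with 2 lower under the clone block and without treated clone 15. RIPK2, a kinase of innate sensing, measured 9.17 and 9.30 without and 33.6 and 33.4 with 4-OHT, TNFRSF21, a death receptor, rose 8.12-fold and IRAK2, of the interleukin 1 receptor complex, 7.41-fold.

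Of 25 collagen chains 14 were lower and 5 higher (median -0.65), with COL16A1 down 7.94-fold and COL1A2, of fibrillar collagen I, from 1657 and 1753 to 272 and 246 RPKM, while COL10A1 appeared. The collagens called higher numbered 2 without untreated clone 15, and 3 without treated clone 15 or without treated clone 54. Proteoglycans and hyaluronan genes were lower in 12 and higher in 5 of 25 (median -1.08), with the keratan sulfate proteoglycan LUM at 474 and 285 without and 18.4 and 12.4 with 4-OHT (24.2-fold lower) and the syndecan SDC2 4.78-fold lower. The proteoglycan genes higher numbered 3 without treated clone 15, and the list's median was -0.68 without untreated clone 54. Elastic fibre and matrix glycoproteins were lower in 18 and higher in 4 of 33. EFEMP2 and FBLN2, fibulins of the elastic fibre, fell 2.83-fold and 4.92-fold, and LTBP1, which stores latent TGF-beta, rose from 1.42 and 2.10 to 17.8 and 19.7 RPKM, 10.3-fold. ADAM and ADAMTS proteases were lower in 10 and higher in 2 of 22, with ADAMTS1 8.44-fold lower and ADAM19 3.69-fold higher.

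Adhesion receptors moved both ways. Integrin and laminin chains were higher in 9 and lower in 11 of 26, and the collagen receptor subunit ITGA2 measured 7.07 and 16.5 RPKM without and 181 and 165 with 4-OHT, 15.9-fold higher, beside the laminin receptor subunit ITGA6 (5.34-fold) and the fibronectin receptor subunit ITGA5 (2.72-fold). ITGAV, of the vitronectin receptor, fell 2.05-fold, and ITGB4, LAMA2 and LAMA3, named after their values were seen, fell by 3.55, 3.21 and 2.26 on the log2 scale, ITGB4 with an adjusted p of 0.109 under limma-voom. CDH2, the N-cadherin of mesenchyme, fell 14.2-fold, from 77.1 and 44.0 to 4.11 and 3.89 RPKM, and PCDH10 10.2-fold, while PCDH18 rose 2.69-fold. Contractile and cytoskeletal genes were lower in 25 and higher in 8 of 44, among the lower MYLK, the myosin light chain kinase (2.32-fold), and MYH10, a nonmuscle myosin (3.24-fold). Of 26 genes of the YAP and TEAD pathway, which reads cell tension, 12 were lower and 4 higher. The angiomotins AMOTL2 and AMOTL1 fell 3.01-fold and 2.23-fold and the kinase STK4 rose 2.95-fold.

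In TGF-beta and BMP signalling 25 of 46 tested genes were lower and 9 higher (median -0.80). Among ligands and their antagonists, BMP2 rose while the BMP antagonist GREM1 measured 18.8 and 16.5 RPKM without and 1.52 and 1.51 with 4-OHT, 11-fold lower. Among regulators, SMURF2, a ubiquitin ligase that removes SMADs and receptors, measured 25.6 and 28.8 without and 217 and 212 with 4-OHT, 7.88-fold higher (log2 2.98 ± 0.08; adjusted p = 1.44e-06), and SMAD6 fell. The inhibitors of differentiation ID1, ID2, ID3 and ID4, known BMP targets named after their values were seen, all fell, with log2 changes of -1.38, -3.29, -1.55 and -3.19. SMAGP, which the list holds although it is a membrane glycoprotein outside the pathway, rose 4.79-fold. WNT genes were lower in 14 and higher in 6 of 33: FZD8 rose as given above, FZD4 and FZD2 fell 7.88-fold and 2.13-fold, and the antagonist DKK1 fell from 291 and 224 to 61.6 and 64.1 RPKM.

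NOTCH and Hedgehog genes were lower in 11 and higher in 2 of 26, and lower in 6 both without untreated clone 54 and without treated clone 15. The NOTCH ligands moved apart, with JAG1 9.06-fold lower and DLL4 13.9-fold higher, from 2.61 and 4.22 to 42.2 and 53.1 RPKM, and the Hedgehog co-receptors BOC and GAS1 fell 7.12-fold and 12.0-fold. Among growth factors and receptors 19 of 39 were lower and 10 higher: CSF1, the macrophage growth factor, fell 7.78-fold, PDGFD 10.1-fold and the receptor PDGFRB 2.91-fold, and VEGFC, of lymphatic growth, rose 2.95-fold. Axon guidance genes were lower in 19 and higher in 9 of 41. The semaphorin SEMA3B measured 30.8 and 27.4 RPKM without and 0.761 and 0.919 with 4-OHT (31.2-fold lower), and SLIT2, EFNB2 and NTN4 fell 7.53-fold, 5.53-fold and 6.71-fold.

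Receptors that couple to G proteins moved both ways: of 45 receptors and RGS regulators 17 were higher and 13 lower, 15 and 12 of them by 2-fold or more. HTR2B, a serotonin receptor, measured 42.8 and 32.5 RPKM without and 1.15 and 0.839 with 4-OHT, 34.5-fold lower, and OXTR, the oxytocin receptor, fell from 448 and 405 to 55.2 and 60.4. F2RL1, a receptor opened by trypsin-like proteases, measured 0.557 and 0.658 without and 11.8 and 10.5 with 4-OHT, 15.9-fold higher. The treated and untreated values of these receptors did not overlap, which holds for every called gene. Downstream, genes of cyclic nucleotide turnover were lower in 13 and higher in 5 of 23: PDE5A, which degrades cyclic GMP, fell from 269 and 215 to 44.7 and 29.7 RPKM, PDE1A and PDE3A fell 12.6-fold and 7.12-fold, and CREM, a cyclic AMP-responsive factor, rose 2.57-fold.

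Ion channels showed no common direction, 11 higher and 14 lower of 45. Beside TRPA1, TRPV2 measured 14.1 and 18.3 RPKM without and 81.7 and 84.3 with 4-OHT (5.14-fold higher), and ORAI1, the pore of store-operated calcium entry, rose 3.12-fold. KCNMB4, a subunit of the large-conductance potassium channel, fell 6.16-fold. Sugar, lactate and nucleoside transporters were higher in 11 and lower in 7 of 22, with the nucleoside carrier SLC29A1 2.81-fold higher and the monocarboxylate carriers SLC16A7 and SLC16A4 3.51-fold and 3.46-fold lower, and SLC2A12, a glucose carrier, 10.9-fold lower. Amino acid carriers were higher in 5 and lower in 7 of 22, with SLC1A5, of glutamine, 1.44-fold higher and SLC38A4 and SLC38A2 3.64-fold and 1.94-fold lower. Of 19 metal genes 7 were higher and 2 lower, and the transferrin receptor TFRC rose 1.53-fold.

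Prostaglandin genes split evenly, 5 higher and 5 lower of 16. PTGES, the inducible prostaglandin E synthase, measured 21.2 and 20.8 RPKM without and 0.522 and 0.884 with 4-OHT, 27.0-fold lower, PTGS1 fell 2.47-fold, and the other E synthase PTGES2 rose 1.93-fold. Lysosome and autophagy genes were lower in 23 and higher in 12 of 50 (median -0.21). The cathepsin CTSF fell 6.52-fold, GAA, the acid glucosidase, 3.69-fold, GUSB, the acid glucuronidase, 2.92-fold, and the autophagy protein GABARAPL1 from 157 and 127 to 33.7 and 32 RPKM. The acid beta-galactosidase GLB1, whose activity marks senescent cells, was lower in message, from 34.3 to 22.6 RPKM in the mean (log2 -0.60, adjusted p = 0.000665), a gene named after its values were seen. Among the 12 that rose was the proton pump subunit ATP6V0A1, with mean RPKM of 4.26 without and 9.5 with 4-OHT, also named after its values were seen.

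Transcription factors of mesenchymal identity were lower in 23 and higher in 10 of 47. The architectural factors HMGA1 and HMGA2 rose, HMGA1 from 58.7 and 82.6 to 698 and 705 RPKM (10.1-fold) and HMGA2 from 7.85 and 10.0 to 96.0 and 126 (12.3-fold). TBX2, a repressor of the p21 gene, rose 4.73-fold while its relative TBX5 fell 3.43-fold. NR2F1, OSR2 and TWIST1, named after their values were seen, fell by 3.69, 2.91 and 1.86 on the log2 scale, and PRRX1 rose by 1.61. Of the HOX genes, which keep the record of body position, 0 of 18 were higher and 4 lower, HOXA13 (3.01-fold), HOXA10 (1.83-fold), HOXC11 (1.73-fold) and the antisense RNA HOTAIR (4.43-fold). Nuclear receptors and circadian factors were lower in 14 and higher in 4 of 31 (2 higher without treated clone 54), with the sterol sensor NR1H3 6.35-fold lower. Of 34 AP-1, KLF and immediate early factors outside the RAS list 14 were lower and 10 higher. FOSL2 fell 5.11-fold, JUND 2.42-fold and KLF4 25.8-fold, from 6.73 and 6.35 to 0.0677 and 0.295 RPKM, while MAFF rose 4.86-fold.

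Most chromatin genes were not called with a 2-fold change. Of 52 genes of DNA methylation, Polycomb and heterochromatin 16 were lower and 8 higher, 3 of them by 2-fold or more: HDAC5 fell 2.83-fold, TET1 2.39-fold, and PHC2 rose 5.06-fold. The number lower was 9 without treated clone 15, and the number higher 5 without treated clone 54. Of 31 lamin, histone variant and HMG genes 7 were higher and 7 lower, 4 and 1 of them by 2-fold or more. The largest log2 change in this list was 3.62, and the HMG proteins HMGA1 and HMGA2 rose as given above. The linker histone H1F0 rose 3.24-fold and the variant histone H2AFZ 3.12-fold. Splicing factors were higher in 18 and lower in 6 of 44, none by 2-fold, and higher in 8 without treated clone 54. Among 38 long noncoding RNAs of the list 12 were higher and 7 lower, with SNHG16 2.45-fold higher, SNHG7 2.23-fold lower and MIR22HG 1.85-fold lower.

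Few cell cycle genes changed by 2-fold, and their counts moved with single libraries. Of 46 DNA replication genes 12 were higher and 3 lower. E2F7, a repressor of E2F targets, measured 1.65 and 2 RPKM without and 45.8 and 39.9 with 4-OHT, 22.4-fold higher (limma adjusted p = 1.44e-06). CCNE1, cyclin E1, rose 2.45-fold, while MCM6, a subunit of the replicative helicase, and the activator E2F2 fell 2.63-fold and 6.02-fold. The number higher was 7 without untreated clone 15 and 7 without treated clone 54, and the number lower was 5 without either of these and 7 with the clone as a block. Of 51 mitotic genes 11 were higher and 3 lower. KIF20A, a kinesin of cytokinesis, measured 18.3 and 22.7 RPKM without and 9.22 and 10.8 with 4-OHT (2.03-fold lower), and ASPM, of the spindle poles, fell 1.78-fold. AURKA, a mitotic kinase, measured 12.6 and 18.2 without and 26.9 and 30.3 with 4-OHT (1.88-fold higher), and BUB3, of the spindle checkpoint, rose 1.34-fold. With the clone as a block 18 mitotic genes were higher and 5 lower. The number higher was 23 without untreated clone 54, 5 without untreated clone 15 and 2 without treated clone 54, and 8 were lower without untreated clone 15.

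Markers of other cell types moved in single genes. The epithelial list had 9 of 20 members tested, with 2 higher and 3 lower. CLDN1, a tight junction claudin, rose from 0.0974 and 0.0890 to 3.5 and 3.28 RPKM, while KRT18 fell from 778 and 757 to 276 and 288 and KRT8 fell 3.51-fold. The list's summed level was 804.8 and 781.8 RPKM without and 293.5 and 307.4 with 4-OHT, nearly all of it KRT18. Among cartilage and bone markers SPP1, osteopontin, rose 14.1-fold and SOX9 8.19-fold, 2 of the 4 tested. SPP1 is also on the secretory list. ACAN, COL2A1, COMP, IBSP, BGLAP and DMP1, of the cartilage and bone list, had at most 1 read in any WT library. COL10A1 and BMP2, which rose too, are not on it. The summed level of that list was 2.6 and 2.9 RPKM without and 23.1 and 20.2 with 4-OHT. The part of other cell types in these results was not tested.

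Of 20 genes often used as reference, 5 were higher and 4 lower. Without treated clone 15, and without treated clone 54, 3 were higher. GUSB and B2M fell 2.92-fold and 2.08-fold, EEF1A1 1.44-fold and ACTB 1.2-fold, and TFRC and HPRT1 rose, HPRT1 1.43-fold. GAPDH was called higher (1.17-fold, adjusted p = 0.0293) but not with the clone as a block (adjusted p = 0.0545) or without treated clone 54 (0.133). The call of ACTB was lost without untreated clone 54 (0.113), treated clone 15 (0.158) or treated clone 54 (0.0695), and with the clone as a block on the 4 WT libraries alone (0.190). RPLP0 measured 1103 and 1237 RPKM without and 1137 and 1270 with 4-OHT, with a log2 difference of 0.04 ± 0.09 (adjusted p = 0.731), and IPO8 12.7 and 12.6 in the means of the groups.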

How the data were processed

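Total RNA libraries of 8 samples were read by the submitters, and STAR, featureCounts, edgeR and the GRCh38 build are named in the submitters' processing notes, with no versions. A strand setting is not given in the sources used here. Values of the deposited table are RPKM per gene as made by the authors, 1 column per library. Columns headed by a clone number alone were read as 4-OHT positive and those with a minus sign as negative. Using GENCODE 29 transcript lengths, 100.0% of values came out as whole reads (tolerance 0.1), with 6676 lengths inferred from the values.

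RPKM were divided by TMM factors (0.9399 to 1.0351 in WT). Genes tested had at least 10 reads at the median library size in any 2 of the 8 libraries, and 15 reads in all. These were 16544 genes, and a gene could pass through its KO reads alone. limma 3.58.1 (R 4.3.3) was fitted to log2(RPKM + 0.1) with trend and robust moderation over 4 group means, with 4 residual degrees of freedom, two-sided, Benjamini-Hochberg threshold 0.05. The count test on recovered reads was limma-voom, which called 8329 genes. The same clones stand in both conditions, so clone numbers pair the libraries, and the clones' deviations from the group means correlated at 0.309 between conditions. The p-values measure the spread between clones. With 2 against 2 libraries no permutation test can pass the threshold, so none was used. Exact counting intervals are at 95% and cover counting error only.

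Named genes were the 15 that rose most and the 15 that fell most among called, non-overlapping genes outside the p53, secretory and RAS lists with a CPM of at least 5, up to 4 members of each list by p plus those needed to give its direction, the 10 most abundant protein-coding genes, up to 8 genes in each direction that appeared or disappeared, and reference genes. Members and lists were chosen with earlier results of these data known. The test was also run on simulated counts with a single fixed spread, no difference between clones and few changed genes. That setting is unlike these data, and no result here rests on it.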

Additional observations from a re-analysis of the deposited data

Results flagged for a closer look

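Of 42 genes with the largest changes or with almost no reads in 1 group, 8 had a response in the KO clones that differed from that in the WT clones by the interaction term of the same limma fit (7.44% of all genes tested passed it, a share that is not comparable, since the WT change that chose the 42 enters the difference). Values are the KO log2 change minus the WT log2 change with its SE. KCTD4 rose less in the KO clones (-3.45 ± 0.44, adjusted p = 0.00717), reaching 0.947 and 0.660 RPKM there and 6.42 and 4.79 in WT. ASB18 also rose less (-2.54 ± 0.48, adjusted p = 0.0245). AC096537.1 (2.53 ± 0.44, adjusted p = 0.0191) and TRPA1 (1.19 ± 0.28, adjusted p = 0.0449) rose more.

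KRT4 fell further in the KO clones (-2.90 ± 0.29, adjusted p = 0.00524), from 28.7 and 24.9 RPKM to no read, against 4.19 and 3.48 RPKM before treatment in WT. PTGIS (-3.21 ± 0.74, adjusted p = 0.0444) did likewise, from 9.54 and 8.51 RPKM in the KO clones and 1.99 and 0.480 in WT, so the size of both falls is bounded by the untreated level. B3GALT2 fell further (-0.86 ± 0.21, adjusted p = 0.0495) and CRABP2 less far (1.16 ± 0.27, adjusted p = 0.046).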

How the results depend on the processing

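Genes called numbered 8084, and 6475 to 8329 under the alternatives that keep all WT libraries. Without 1 WT library at a time the count was 6450 to 7503, with 3271 to 3912 higher, 3110 to 3591 lower and 2863 to 3283 past 2-fold. With the clone as a replicate block 8271 genes were called, 7698 of them also called without it, and the block on all 8 libraries changed the call of 5 of the 266 genes named in the text (GAPDH, RPL37A and RXRA lost, CLDN5 and MITF gained as lower) and of no other. With only the 4 WT libraries 6475 genes were called without the block and 7584 with it, and the latter fit changed the call of 11 (these 5, ACTB, LGALS1, ANXA2, PKM and SREBF2 lost, and ATF4 gained). A pseudocount of 1 brought the median log2 change to -0.50 for proteoglycan and -0.72 for complement genes. A pseudocount of 1 left 1577 genes past 2-fold in place of 3036. Opposite changes of the clones numbered 14 at 2-fold and 108 at 1.5-fold. The 8 differences between KO and WT responses became 5 with a pseudocount of 0.01, 2 with no filter, 3 with limma-voom, and 4 to 11 without 1 WT library (4 without treated clone 15 and 5 without treated clone 54). The cause was not tested. Over 16 alternatives 21 named genes changed a call under at least 1, and none reversed. Library size alone moved the median log2 change of all genes to -0.08. Depth limits genes below 1 RPKM.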

Other observations

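Some genes that fell or rose by 2-fold or more stand side by side among tested protein-coding genes. There were 12 runs of 4 or more such neighbours, looked for after the values were seen and given with no test (GENCODE 29 coordinates, GRCh38). On chromosome 2 from 161992241 to 165204067, 8 neighbours were lower: DPP4, FAP, IFIH1, GCA, FIGN, COBLL1, SLC38A11 and SCN3A. FAP, a fibroblast surface protease, measured 31.5 and 24.8 RPKM without and 1.72 and 1.39 with 4-OHT, and SLC38A11, an amino acid carrier, 103 and 71.6 without and 11.8 and 7.56 with it. On chromosome 1 from 109309568 to 109492804, PSMA5, the 1 proteasome gene that fell, lies with SORT1, SYPL2 and ATXN7L2, which fell too. SORT1, a sorting receptor, measured 17.3 and 13.8 without and 7.22 and 5.66 with 4-OHT. Reads of adjacent genes such as SYPL2 and ATXN7L2 can overlap.

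On chromosome 12 from 52232520 to 52952901, 5 keratin genes were lower, KRT7, KRT81, KRT4, KRT8 and KRT18. On chromosome 3 from 157259742 to 158106503, VEPH1, PTX3, PQLC2L and SHOX2 were higher, with the pentraxin PTX3 at 25 and 49.7 RPKM without and 300.1 and 359 with 4-OHT.

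ESR1, the receptor that 4-OHT binds, measured 2.04 and 2.28 RPKM without and 2.12 and 1.57 with 4-OHT and was not called (limma adjusted p = 0.379), nor was its target GREB1 (adjusted p = 0.32). Whether reads of the HRAS construct are among those counted for ESR1 was not tested.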
